A study of Mus musculus with 4 samples.

Results

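The class III phosphatidylinositol 3-kinase genes described here are Pik3c3, Pik3r4, Becn1, Atg14, Uvrag, Nrbf2 and Ambra1, 7 of the 21627 protein-coding genes that the RefSeq table of GRCm38.p6 places on the autosomes or X, the assembly behind mm10. They were chosen by name as subunits or close regulators of the complex, and all 7 symbols were found in the table. For each gene, the Deaf1 peaks inside its span or within 5 kb of it were collected from both deposited peak lists. The peaks came from Deaf1 chromatin immunoprecipitation and sequencing, 2 replicates, in C2C12, a line of mouse myoblasts able to fuse into myotubes. All samples were of this line, formaldehyde-crosslinked and untreated as far as the labels say. They name the cells myocytes, whereas the series' own description says differentiated myoblasts, so the stage is not settled. The 2 input samples entered no comparison, because no peak list of theirs was used, and peak lists hold no expression level with which to check the cell type.

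Class III phosphatidylinositol 3-kinase makes phosphatidylinositol 3-phosphate (PI3P), the lipid that recruits effector proteins to forming autophagosomes and to endosomes. The catalytic subunit Vps34 (Pik3c3), the pseudokinase scaffold Vps15 (Pik3r4) and Beclin 1 (Becn1) form a core that is common to both main complexes. Atg14 directs complex I to sites of autophagosome formation, where Nrbf2 is a further subunit, and Uvrag takes the place of Atg14 in complex II, which acts on endosomes. Ambra1 is a Beclin 1 binding protein that promotes autophagy. Deaf1 is a transcription factor whose SAND domain binds DNA with TTCG cores.

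Peaks of both replicates stood at the genes of the subunits that set the complexes apart and of the regulator, and at none of the 3 core genes. This split by role was seen in the values and was not tested. Of the core genes, Becn1 and Pik3r4 had a gene-end peak in replicate 1, so for them it rests on replicate 2, the shorter list. Atg14, Uvrag, Nrbf2 and Ambra1 each had summits of both replicates within 1 kb of the same gene end, 4 of 7 genes. By this rule 51.6% of all protein-coding genes were called, so the share of the complex lay near the background. With the wider window of the span and 5 kb on either side the same 4 genes had a shared region, a block of overlapping peaks of both replicates, against 63.6% of all genes. Long spans hold more peaks by that rule: it called 81.6% of genes with spans of 50 kb or more and 58.2% of shorter ones, and Pik3c3, Uvrag and Ambra1 have spans above 50 kb. With replicate 1 alone, 6 of the 7 had a gene-end peak, against 61.8% of all genes, and all 7 had a peak in the wider window, against 72.9%. With replicate 2 alone 4 had a gene-end peak, against 52.3%. Replicate 1 had 65606 peaks and replicate 2 had 26503, and the number of reads behind them is not known from these files. No control peaks were set against these lists, and whether signal shared by promoters in general contributes was not tested.

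**Figure D1:**
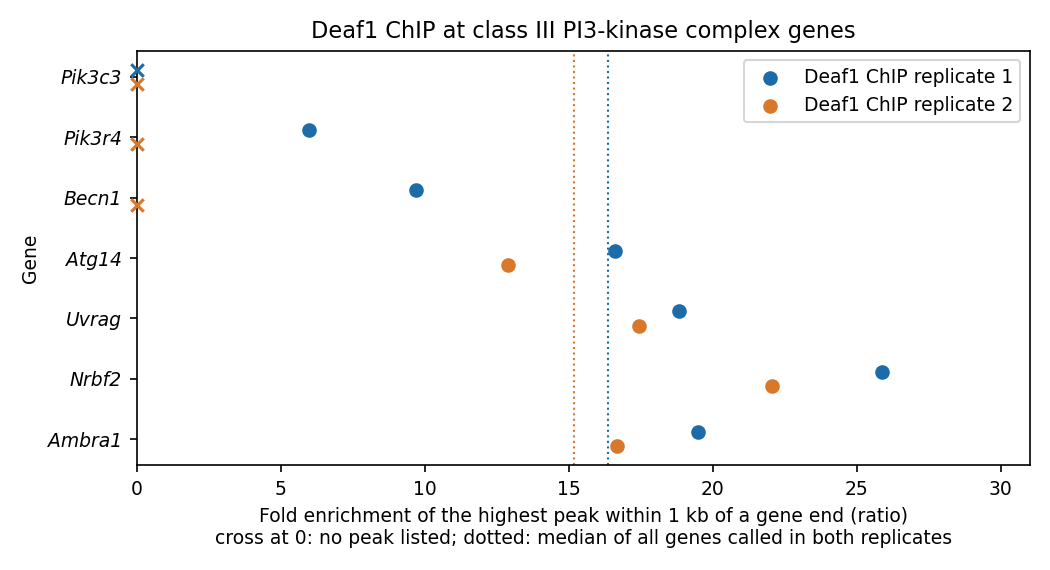
Each dot is the fold enrichment of the highest Deaf1 peak within 1 kb of a gene end in replicate 1 (blue) or replicate 2 (orange), and a cross at 0 marks a gene with no such peak listed. Dotted lines show the medians of all genes called in both replicates, 16.4 in replicate 1 and 15.2 in replicate 2; the 4 genes with both dots run from 12.9 to 25.9, and the 3 core genes have no orange dot.

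Nrbf2 (chromosome 10, 67266689 to 67285343), the gene of a complex I subunit, had the strongest signal of the 7. The fold enrichment, the authors' ratio of summit signal over the background estimated by the peak caller, was 25.9 in replicate 1 and 22.0 in replicate 2 (mean 24.0 ± 2.70, SD, n = 2). The folds exceeded those of 93.9% and 75.8% of the 11161 genes called in both replicates. Recovered from the deposited fold and p, the summit pileups were 80 fragments (95% exact Poisson interval 63.4 to 99.6) and 67 fragments (51.9 to 85.1). These intervals cover counting error only. The summits lay 7 bp apart, 74 and 67 bp upstream of the annotated start on the minus strand, and the peaks were 878 and 748 bp wide. The neighbouring noncoding gene Gm46200 begins 90 bp beyond the Nrbf2 span, and its end lay 78 and 85 bp from the summits, so this peak cannot be assigned to Nrbf2 alone.

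The Nrbf2 promoter is the only one among the complex genes whose RefSeq window, 250 bases before to 50 after the start, holds the summits of both replicates. It is shown on the gene's strand at chr10:67285232-67285531 of GRCm38.p6, with TTCG or its reverse complement CGAA in capitals.
Nrbf2: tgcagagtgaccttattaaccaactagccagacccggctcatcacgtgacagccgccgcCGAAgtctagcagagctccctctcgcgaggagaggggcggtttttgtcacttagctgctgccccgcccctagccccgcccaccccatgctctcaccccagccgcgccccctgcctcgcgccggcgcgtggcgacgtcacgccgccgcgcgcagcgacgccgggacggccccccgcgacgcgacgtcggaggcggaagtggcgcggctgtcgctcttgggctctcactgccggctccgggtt
Peaks covered 282 of these 300 bases in replicate 1 and 257 in replicate 2. The single core, a CGAA at 191 bp before the start, lay under both peaks, 116 and 122 bp from the summits. The window also held GGGCGG, the core read by Sp and Klf factors, at 3 places on either strand, 1 CACGTG and 1 TCTCGCGA. GC made up 71.0% of the window and it held 40 CpG, against medians of 56.7% and 13 over 21044 promoters of protein-coding genes. Over the 10960 of these promoters with peaks of both replicates within 1 kb, the medians were 63.7% and 23.

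Uvrag (chromosome 7, 98886742 to 99141167), which marks complex II, had folds of 18.8 in replicate 1 and 17.4 in replicate 2 at its start (mean 18.1 ± 0.983, SD, n = 2). These were higher than in 62.8% and 59.0% of called genes. The pileups were 58 fragments (interval 44.0 to 75.0) and 45 (32.8 to 60.2), and the summits lay 12 bp apart, 356 and 344 bp downstream of the annotated start. Within this 254 kb gene replicate 1 listed 13 summits, or 5.11 per 100 kb, against 4.78 per 100 kb over all protein-coding spans. Replicate 2 listed 2, or 0.786 per 100 kb, against 2.01 over all such spans. Of its 14 peaks in the window, 12 had no overlapping replicate 2 peak, with folds of 4.47 to 6.70. A second shared region lay in the gene body, 111 kb from the end that holds the start, where the fold was 5.11 in replicate 1 and 7.59 in replicate 2. Uvrag thus held a strong pair of peaks at its start and weak peaks along its body that, but for this region, were in the longer list alone.

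Its promoter window, minus strand, chr7:99141095-99141394, is shown because both peaks reach into it while it holds no TTCG on either strand, so no letter is in capitals.
Uvrag: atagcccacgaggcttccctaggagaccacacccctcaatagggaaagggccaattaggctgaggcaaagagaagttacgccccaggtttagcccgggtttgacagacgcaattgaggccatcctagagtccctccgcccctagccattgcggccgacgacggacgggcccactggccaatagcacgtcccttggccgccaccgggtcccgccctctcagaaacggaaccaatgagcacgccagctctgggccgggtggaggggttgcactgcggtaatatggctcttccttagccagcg
The peaks covered 215 and 178 of its bases, and the summits lay downstream of it. CCAAT, the core read by the Nfy complex, stood at 3 places, 2 of them under both peaks, and GGGCGG at 2 places.

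Ambra1 (chromosome 2, 91730138 to 91918849) had folds of 19.5 in replicate 1 and 16.7 in replicate 2 at its start (mean 18.1 ± 1.99, SD, n = 2), above those of 66.3% and 55.8% of called genes. Pileups were 60 fragments (interval 45.8 to 77.2) and 49 (36.3 to 64.8). The summits lay 196 and 317 bp downstream of the start, 121 bp apart, the widest gap among the 4 genes; over all 22880 shared regions the median gap was 24 bp. When summits had to lie within 100 bp of each other, Ambra1 lost its call at the gene end. Beyond its other end, 3381 and 3342 bp away, stood a second shared region with folds of 17.6 and 16.3. Those summits were 41 and 2 bp from an end of Chrm4, a muscarinic acetylcholine receptor gene, so this region lies nearer to Chrm4 than to Ambra1. Replicate 1 alone listed 5 further peaks in the window, 2 of them inside the gene with folds of 8.30 and 5.75.

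The Ambra1 window, plus strand, chr2:91729888-91730187, is shown because it has the most TTCG cores of the 5 promoters found, in capitals.
Ambra1: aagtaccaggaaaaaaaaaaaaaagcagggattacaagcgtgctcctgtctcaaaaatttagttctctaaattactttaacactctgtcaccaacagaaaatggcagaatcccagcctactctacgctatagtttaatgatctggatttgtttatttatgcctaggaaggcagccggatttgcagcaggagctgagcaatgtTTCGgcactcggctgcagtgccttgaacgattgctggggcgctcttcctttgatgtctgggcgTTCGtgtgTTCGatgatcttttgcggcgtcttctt
The 3 cores begin 48 bp before the start and at transcript bases 16 and 24. The last pair, 8 bp from start to start, lay under the replicate 1 peak, 180 and 172 bp from its summit, and outside the replicate 2 peak. Windows with at least 3 cores made up 7.02% of all promoters, and those with 2 cores starting within 20 bp of each other 5.82%. Among the 10960 promoters with peaks of both replicates within 1 kb, these shares were 10.1% and 7.76%. GC was 44.7%, the lowest of the 5, with 12 CpG.

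Atg14 (chromosome 14, 47540893 to 47568434), which marks complex I, had the lowest folds of the 4, 16.6 in replicate 1 and 12.9 in replicate 2 (mean 14.8 ± 2.63, SD, n = 2). They exceeded those of 51.3% and 40.1% of called genes, near the middle of both lists of genes. The pileups were 59 fragments (interval 44.9 to 76.1) and 33 (22.7 to 46.3), with summits 26 bp apart, 132 and 158 bp downstream of the start. Replicate 1 had 3 further peaks without a partner, with folds of 3.83 to 6.39. One of these lay 1032 bp beyond the start and 57 bp inside the pseudogene Gm6616.

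The Atg14 window, minus strand, chr14:47568385-47568684, has 1 TTCG in capitals and is shown for the CACGTG that spans the annotated start.
Atg14: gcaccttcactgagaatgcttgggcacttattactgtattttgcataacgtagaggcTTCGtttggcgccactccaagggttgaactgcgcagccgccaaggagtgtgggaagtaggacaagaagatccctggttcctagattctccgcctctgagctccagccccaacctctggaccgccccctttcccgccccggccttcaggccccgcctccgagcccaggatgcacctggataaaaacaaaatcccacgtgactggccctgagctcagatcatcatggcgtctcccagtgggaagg
The TTCG, 193 bp before the start, lay outside both peaks, which covered 156 and 13 of the bases. CACGTG, the E-box core that Tfeb reads, and GGGCGG at 2 places lay under the replicate 1 peak and outside that of replicate 2.

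**Figure D2:**
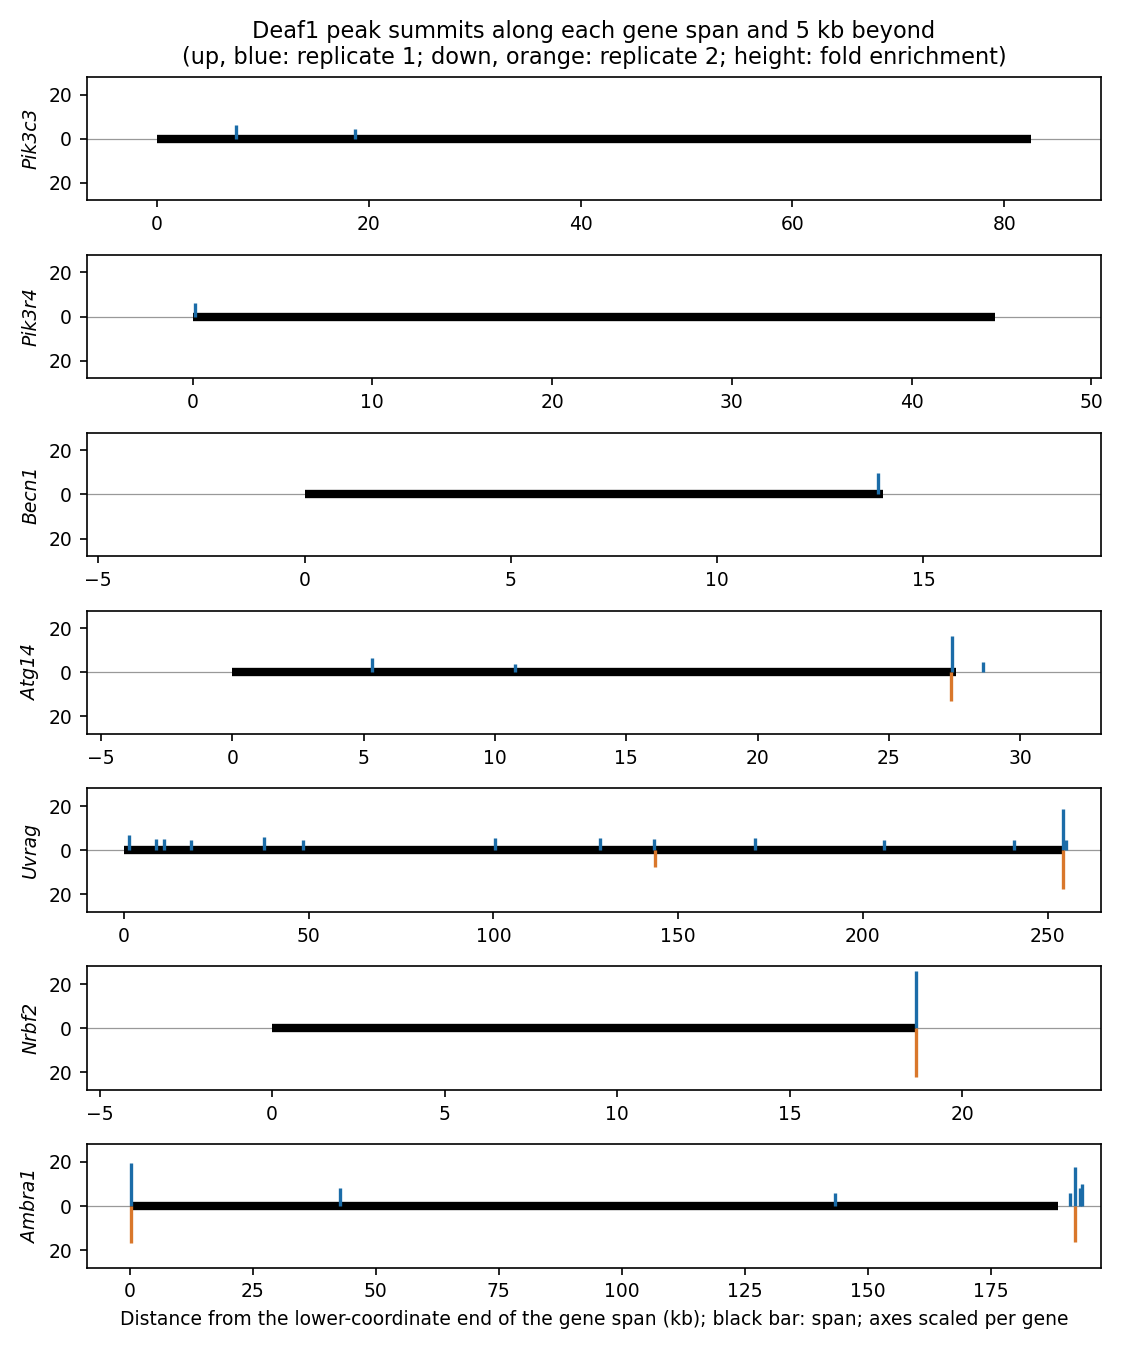
Lines mark Deaf1 peak summits along each gene span (black bar) and 5 kb beyond, by distance in kb from the lower-coordinate end, with fold enrichment as height, upwards for replicate 1 and downwards for replicate 2. Uvrag has 14 replicate 1 peaks and 2 of replicate 2, and Pik3c3, Pik3r4 and Becn1 have no line below the bar.

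Becn1 (chromosome 11, 101288258 to 101302286), the gene of the Beclin 1 scaffold, had a replicate 1 peak 134 bp inside its higher-coordinate end and no peak of replicate 2 in its window. The replicate 1 fold was 9.69 with a −log10 q of 35.4. Its pileup of 54 fragments (interval 40.6 to 70.5) was close to the 59 of Atg14, over a local background of 4.67 fragments against 2.61 at Atg14 and a lowest background of 2.13 in that list. Of 1462 replicate 1 gene-end peaks with a fold within 10% of that of Becn1, 78.9% overlapped a replicate 2 peak (exact Clopper-Pearson interval 76.7% to 80.9%). Of the 86 of these whose pileup was also within 10%, 83 did (96.5%, interval 90.1% to 99.3%). These 2 reference sets were chosen after the values were seen. The Becn1 peak was 1 of the 3 in this set that replicate 2 did not list. The nearest replicate 2 peak lay 13.9 kb beyond the gene, 105 bp from an end of Psme3, a proteasome activator gene, with a fold of 18.3. No other gene end lay within 1 kb of the Becn1 summit.

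Pik3r4 (chromosome 9, 105642995 to 105687655), the gene of Vps15, had a single weak peak in replicate 1, 111 bp downstream of its start, and none in replicate 2. The fold was 5.99 with a −log10 q of 10.3, and the pileup was 21 fragments (interval 13.0 to 32.1) over a background of 2.67. Of 1718 replicate 1 gene-end peaks with a fold within 10% of this, 18.3% overlapped a replicate 2 peak (exact Clopper-Pearson interval 16.5% to 20.2%), so most peaks of this height had no partner. The nearest replicate 2 peak lay 148 kb away.

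The Pik3r4 window, plus strand, chr9:105642745-105643044, is shown as the only promoter found among the core genes. The window holds no TTCG on either strand.
Pik3r4: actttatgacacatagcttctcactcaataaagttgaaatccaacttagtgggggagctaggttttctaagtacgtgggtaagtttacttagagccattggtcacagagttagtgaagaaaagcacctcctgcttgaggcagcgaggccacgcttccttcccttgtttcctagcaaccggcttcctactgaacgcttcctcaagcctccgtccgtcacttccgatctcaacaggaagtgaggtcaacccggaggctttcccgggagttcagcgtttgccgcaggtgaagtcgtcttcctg
The replicate 1 peak covered its last 13 bases. The window held 1 CCAAT on the opposite strand, 13 CpG and 50.7% GC.

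Pik3c3 (chromosome 18, 30265615 to 30348126), the gene of the Vps34 kinase itself, was the only gene of the complex with no peak of either replicate within 1 kb of an end. Inside it replicate 1 listed 2 peaks and replicate 2 none. The stronger one was 182 bp wide, with a pileup of 28 fragments (interval 18.6 to 40.5) over a background of 3.59, and its fold of 6.32 exceeded that of 51.8% of replicate 1 peaks. The other had 13 fragments (6.92 to 22.2), and its fold of 4.47 exceeded that of 15.4%. This gives 2.42 summits per 100 kb of the gene in replicate 1 and 0 in replicate 2, against 4.78 and 2.01 over all protein-coding spans. No replicate 2 peak lay nearer than 1261 kb to the gene.

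**Figure D3:**
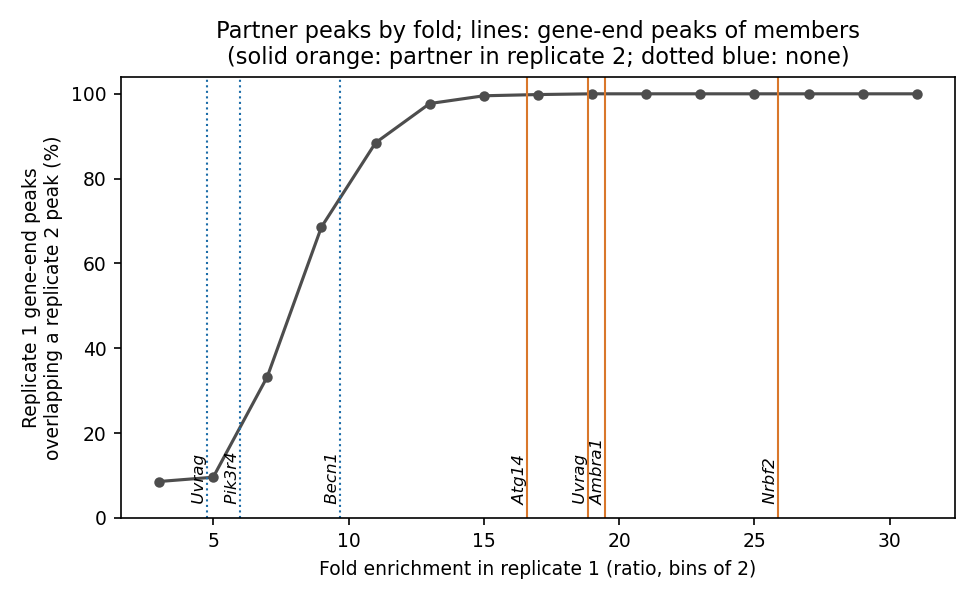
Grey points give the percentage of replicate 1 gene-end peaks that overlapped a replicate 2 peak, in bins of replicate 1 fold enrichment that are 2 wide. Vertical lines mark the gene-end peaks of the complex genes. Those with a partner (solid orange) run from 16.6 to 25.9, where the percentage is at least 99.8, and those without one (dotted blue) from 4.79 to 9.69.

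Over the whole complex, replicate 1 had 30 peaks in the windows and replicate 2 had 6. All 6 replicate 2 peaks overlapped a replicate 1 peak, and 24 of the replicate 1 peaks had no partner. In the lists as a whole, 65606 replicate 1 peaks and 26503 replicate 2 peaks gave 22880 shared regions. Replicate 1 peaks without a partner were thus common throughout that list. Their share of all replicate 1 peaks was not worked out, so whether 24 of 30 differs from it is not known. The 24 at these genes had folds of 3.83 to 10.2 with a median of 5.75. At the called gene ends the median fold of the 4 genes was 19.2 in replicate 1 and 17.1 in replicate 2, against 16.4 and 15.2 over all 11161 called genes. The fold was lower in replicate 2 at each of the 4 genes. Over all shared regions, whose median folds were 12.5 and 9.48, the median ratio of replicate 2 to replicate 1 was 0.836. That ratio was not taken for peaks as strong as those of the 4 genes.

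**Figure D4:**
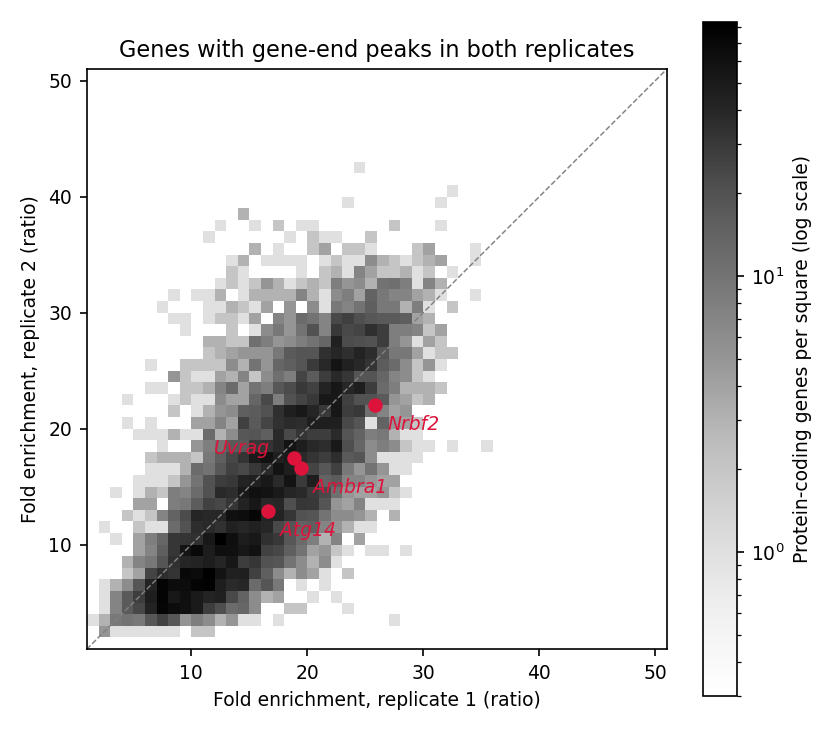
Grey squares count all protein-coding genes with gene-end peaks in both replicates by their fold enrichment in replicate 1 (horizontal) and replicate 2 (vertical), on a log scale of grey. Nrbf2, Uvrag, Ambra1 and Atg14 (red) lie just below the diagonal, inside the main body of genes.

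Annotated starts were found for 5 of the 7 genes, and Becn1 and Pik3c3 had no entry. Summits of both lists lay within 1 kb of the start at 4 of the 5, against 54.0% of 17273 genes with one, and Pik3r4 was the exception. The windows were searched on both strands for 9 fixed motifs, of which none contains another. TTCG was in 3 of the 5, against 49.4% of all promoters, and GGGCGG in 3, against 46.7%. CACGTG was in 2, against 7.91%, CCAAT in 2, against 38.5%, and TCTCGCGA in 1, against 1.42%. CCGGAA, a longer form of the Ets site, was in 0 of the 5, against 18.9%, and shorter Ets sites were not searched. The Nrf1 motif, TGACGTCA of Creb and AAGATGGC of Yy1 were also in 0 of the 5, against 1.34%, 2.26% and 3.07%. Base composition moves with these shares: TTCG was in 61.5% of 10960 promoters with peaks of both replicates within 1 kb and in 36.3% of 10084 without, and the median GC was 63.7% and 49.0%. In the same 10960 promoters GGGCGG was in 72.3%, CACGTG in 10.8%, CCAAT in 35.7%, CCGGAA in 26.6% and TCTCGCGA in 2.47%. The part of base composition in these shares was not tested. The summits at Uvrag, Ambra1 and Atg14 lie downstream of the windows, so the letters under them were not searched.

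Genes that work with the complex were mostly occupied at an end. Of 30 partners and regulators 24 were called in both replicates, against 51.6% of all protein-coding genes. Bcl2, the apoptosis inhibitor that binds Beclin 1, had folds of 28.4 in replicate 1 and 28.8 in replicate 2. In the same order of replicates, Dapk2, the gene of a death-associated protein kinase, had folds of 24.6 and 25.8. The co-chaperone gene Bag3 had 23.6 and 24.3, and Tab2, the gene of a kinase-binding adaptor, had 23.2 and 31.1. Slamf1, an immune cell receptor gene, had no peak of either replicate in its window. Bcl2l1 and Mcl1, also uncalled, had no gene-end peak in either replicate. Vmp1, Usp13 and Ticam1 had a gene-end peak in replicate 1 only. Among called members of this list the median fold was 17.9 in replicate 1 and 18.0 in replicate 2.

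Of 35 readers and turnover enzymes of PI3P, the lipid product, 30 were called, against 51.6% of all protein-coding genes. Named here are the 4 with the highest smaller fold of the replicates. The sorting nexin gene Snx5 had folds of 26.3 in replicate 1 and 27.3 in replicate 2, at a peak shared with Mgme1. Zfyve9, the gene of a FYVE-domain protein of endosomes, had 24.7 and 32.0. Wipi1, which encodes a PI3P effector of autophagosome formation, had 25.8 and 23.1, and Eea1, the gene of an early endosome tether, had 27.9 and 22.9. Of 33 other genes of the core autophagy machinery 29 were called, against the same 51.6%. The highest were the LC3 gene Map1lc3a, the initiation complex genes Rb1cc1 and Ulk2, and Tfeb, which switches on lysosomal genes, and the smaller fold of the replicates ran from 22.7 at Ulk2 to 31.2 at Map1lc3a. The 4 not called were Atg4a, Atg4c, Atg7 and Nbr1, the last 3 with a gene-end peak in replicate 1 only. These lists were chosen with earlier results of these data known, and no test was made of their counts.

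Of the 14 class I and class II PI3-kinase genes, relatives of Pik3c3 with their regulatory genes, 9 were called (64.3%), against 51.6% of all protein-coding genes. Pik3cb had folds of 30.0 in replicate 1 and 25.9 in replicate 2, at a peak shared with Gm2773. Pik3ca had 19.8 and 26.0, and the class II gene Pik3c2b had 22.7 and 18.0. Pik3r5, which encodes a regulatory subunit, had 19.8 and 17.1 at a peak shared with Gm32046. Pik3c2g had no peak of either replicate in its window. The other catalytic class I genes were lower or not called: Pik3cg had 5.75 and 3.75, and Pik3cd had a gene-end peak in replicate 1 alone. The class II gene Pik3c2a had no gene-end peak in either replicate, as was the case for Pik3c3 and, in this list, for Pik3c2g, Pik3r6 and Pik3ip1. Of all protein-coding genes 61.8% had such a peak in replicate 1 and 52.3% in replicate 2. Pik3cg, Pik3cd, Pik3c2a, Pik3r6 and Pik3ip1 were named after their values were seen.

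**Figure D5:**
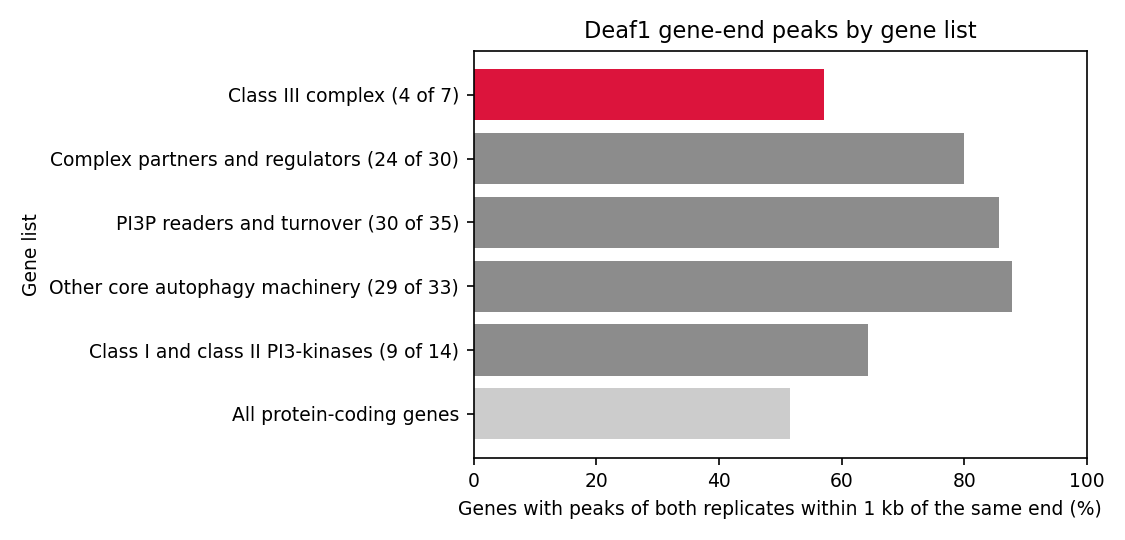
Bars give the percentage of genes with summits of both replicates within 1 kb of the same gene end, for the class III complex (red, 4 of 7), 4 lists of related genes (grey) and all protein-coding genes (light grey, 51.6%). The lists of partners, PI3P readers and autophagy machinery lie at 80% or more and the complex at 57.1%.

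By distance of the log2 folds over the 2 replicates, the gene in these lists with values most like those of Nrbf2 was Rubcn, which encodes an inhibitor of the complex, with folds of 25.2 and 21.6. For Uvrag it was Hgs, an endosomal sorting gene, with 18.5 and 17.4, for Ambra1 it was Pik3r5, and for Atg14 it was Atg9a, the gene of an autophagy lipid scramblase, with 17.3 and 13.3. With 2 values a gene this likeness is a description of level only.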

How the data were processed

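Deaf1 ChIP-seq peak lists of 2 replicates were used, 1 per ChIP sample and not pooled. BWA and MACS2 were used on mm10, per the submitters' processing notes; the sources used here do not give versions, parameters or the control. The labels do not say whether replicates were separate cultures. The fold enrichment (a ratio), −log10 p and −log10 q of each peak are the authors' deposited values, and served for description, ranking and filtering within 1 list at a time. In 100% of peaks the deposited score was the −log10 p times 10 without its decimals. Positions were converted to 1-based coordinates.

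Read depth is not in the files. Each summit pileup and background were recovered as the whole number of fragments that gives the deposited fold, (pileup + 1) over (background + 1), and Poisson p, with a largest misfit of 4.07e-05 in −log10 p. The code was tested on simulated data. Spans, starts and promoter sequences came from RefSeq tables of GRCm38.p6, which give no exons. Where strand was not given, a gene end may be either end of transcription. Poisson and Clopper-Pearson intervals are at 95%. Python 3.11.15, pandas 2.3.3 and scipy 1.17.1 were used.

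The genes and lists were chosen with earlier results of these data known. Named from each list were the 4 genes with the highest smaller fold and those with no peak in the window. The genes nearest in fold to the complex genes were also named. The other uncalled partners and the uncalled autophagy genes were named after their values were seen. No tests were made, since the design has 1 condition. Of 36 PI3P genes listed 35 matched the table. Alternatives changed the replicates, peak threshold, overlap, list length and window.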

Additional observations from a re-analysis of the deposited data

How the results depend on the processing

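No paired analysis was possible because the inputs, which carry the same numbers as the ChIP replicates, have no list to pair with theirs. The number of complex genes with a shared region in the 5 kb window was 4. With a single replicate it was between 4 and 7, the 7 with replicate 1 alone, where 72.9% of all genes were called. Under the other thresholds of fold and q, overlaps, list lengths and windows tried it was 4, against 46.7% to 66.2% of all genes. The count at gene ends was 4, against 35.8% to 61.1% of all genes, with 2 exceptions. It was 3 when summits had to lie within 100 bp, against 43.3% of all genes. With replicate 1 alone it was 6, against 61.8%. With a fold of 10 or more both counts were 4, against 46.7% of all genes in the window and 35.8% at an end. The counts of the 4 related lists were within 1.5 times of those reported in each setting tried. With summits within 100 bp, where 43.3% of all genes were called, 18 of 30 partners and regulators were called. By that rule the PI3P list had 25 of 35, the autophagy list 26 of 33 and the class I and class II list 6 of 14. Within 500 bp of an end the class I and class II count was also 6, against 43.2% of all genes. Set over the lowest background of each list, the mean folds of the 4 called genes were 16.0 at Atg14, 18.1 at Uvrag, 25.8 at Nrbf2 and 19.2 at Ambra1. With 2 replicates, leaving out 1 cannot move a mean by more than their SD, so it says nothing of stability. Peak lists hold no value below their threshold, so a missing replicate 2 peak does not show that signal was absent there.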
